A study of Mus musculus with 120 samples.

Results

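The chromosome 8 consomic strain, B6-Chr8MSM, was compared with its background strain B6 in liver. Its members were the 4 arrays of 2 males labelled B6-Chr8MSM and the 4 arrays of 2 males labelled B6, so 8 of the 120 arrays of the series, chosen by strain label alone. A consomic strain is bred by repeated backcrossing until 1 chromosome comes from a donor strain and the rest of the genome from the recipient. Transcripts that differ from the recipient can then be sorted into genes on the exchanged chromosome and genes elsewhere. The donor here was MSM (MSM/Ms), bred as an inbred line from wild mice of Japan; the recipient was B6 (C57BL/6J), the standard laboratory strain.

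All mice were males aged 10 weeks that had fasted for 4 h, and RNA of the whole liver was hybridised to Affymetrix Mouse Genome 430 2.0 arrays, which read each transcript with sets of short probes. The series held 30 strains with 2 males each and 2 arrays per male. Besides B6 and the B6-Chr8MSM strain, the MSM strain and the other 27 consomic strains, each with another MSM chromosome, part of one, or the MSM mitochondria on the B6 background, were used as references. B6 and those 27 strains together formed a second reference of 28 strains and 56 males without MSM chromosome 8. That the 2 arrays sharing an animal number came from 1 male is taken from the titles and not stated. The labels also do not say whether the males of a strain were littermates, and do not describe donor segments that may remain outside chromosome 8. Each strain is therefore represented by 2 males of 1 line.

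The deposited values, taken as log2 signals, varied very little between males of a strain. The median SD over genes was 5.95e-05, from 1.02e-05 at the 10th percentile to 0.000806 at the 90th. How the values were processed before deposit was not given, so this spread is not read as the spread of transcript levels. The size of a difference likewise cannot be read as a fold change or set beside that of another gene. Each difference is given on the deposited log2 scale with its SE, and also in units of the SD between males of 1 strain, estimated over all 30 strains. A gene was called when its adjusted p was below 0.05 (limma, Benjamini-Hochberg over 11949 tested genes). Of 11 measured hepatocyte markers, 11 lay above the median of all values on every array.

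Chromosome 8 of the mouse carries several groups of genes active in liver. One is a tandem family of carboxylesterases, enzymes of the endoplasmic reticulum that split ester bonds in drugs, retinyl esters and stored lipids. The chromosome also holds the metallothioneins, small metal-binding proteins induced by zinc, glucocorticoids and fasting, and the genes of several plasma proteases and clotting factors that hepatocytes secrete.

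Against B6, the liver of the B6-Chr8MSM strain differed mainly in genes of chromosome 8. The carboxylesterases Ces2a, Ces1g and Ces2e, plasma prekallikrein (Klkb1) and the lysosomal amidase Aga were lower. The transcribed pseudogene 2610005L07Rik, the pyrimidine-synthesis enzyme Dhodh and the plasma cholesterol-esterifying enzyme Lcat were higher. Of 658 tested chromosome 8 genes, 36 were called (5.47%), 11 higher and 25 lower. Over all tested genes 0.31% were called, 0.0921% higher and 0.218% lower. Of 11244 genes on other chromosomes 1 was called (0.00889%), and at an unadjusted p below 0.05 the shares were 25.7% on chromosome 8 and 9.2% elsewhere. No other chromosome exceeded 11.4% at that level. In all 36 genes both B6-Chr8MSM males lay beyond both B6 males, which the choice of these genes by the same 4 males makes likely. The count fell to between 12 and 18 when any 1 of these 4 males was left out, and 9 genes were called in each of these 4 fits: 2610005L07Rik, Dhodh, Ces2a, Ces1g, Klkb1, Aga, Nae1, Abcb10 and Fcsk. A further quantile normalization of the deposited values left 11 calls on chromosome 8, 10 of them among the 36, and gave 29 calls elsewhere. Dhodh and Lcat lost their calls there, and Dhodh changed sign.

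**Figure D1:**
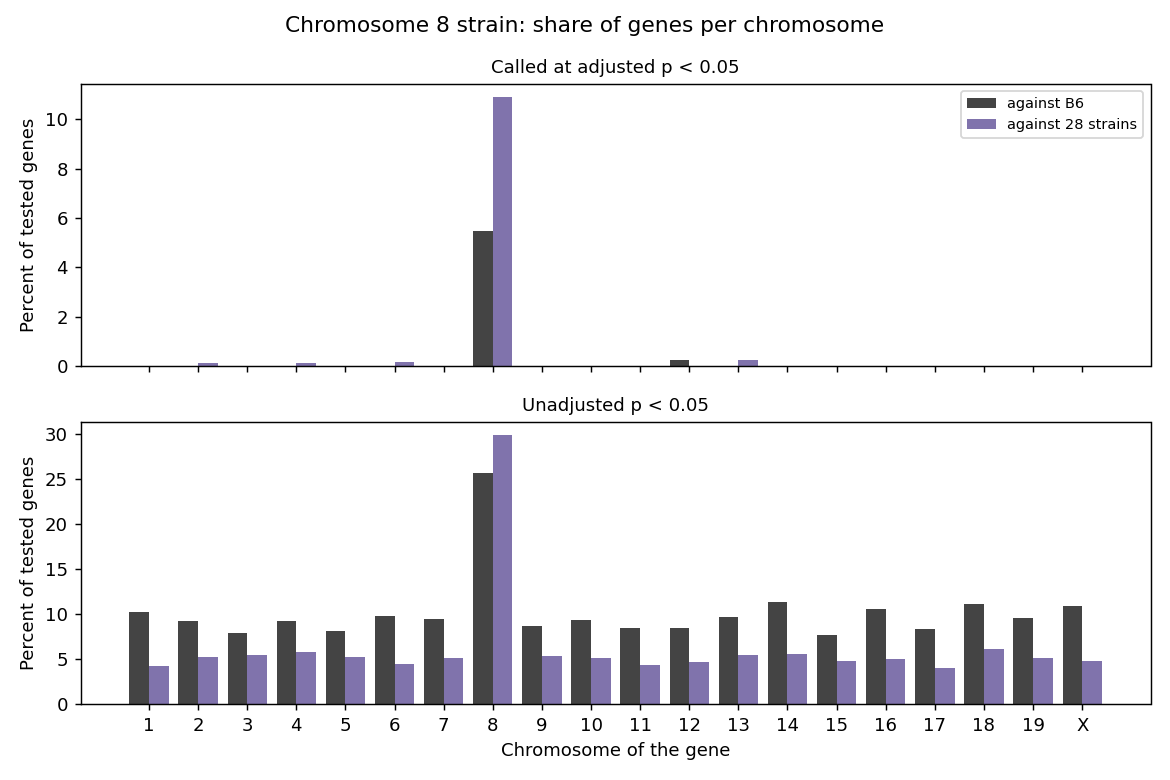
Share of tested genes per chromosome that were called at an adjusted p below 0.05 (upper panel) or passed an unadjusted p below 0.05 (lower panel), for the B6-Chr8MSM strain against B6 (dark bars) and against the 28 strains (purple bars). Chromosome 8 reached 5.47% and 10.9% in the upper panel and stood above all other chromosomes in both panels.

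Setting the strain against all 28 strains without MSM chromosome 8 reduces the weight of the 2 B6 males. In this comparison 72 of 658 chromosome 8 genes were called (10.9%), 20 higher and 52 lower, and 4 of 11244 elsewhere (0.0356%). The shares over all tested genes were 0.636% in either direction, 0.176% higher and 0.46% lower. Of the 36 genes called against B6, 35 were also called here with the same sign, and Get3, an ATPase that delivers tail-anchored membrane proteins, was not (adjusted p = 0.269 in limma). The comparisons share the B6-Chr8MSM males, and B6 is 1 of the 28 strains. The count was 33 without B6-Chr8MSM male 1 and 25 without male 2.

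In 69 chromosome 8 genes (10.5%) both B6-Chr8MSM males lay beyond all 56 males of the 28 strains, 16 above and 53 below, against 9 genes elsewhere (0.08%) and 0.653% of all tested genes. MSM males, which the choice of these genes did not use, lay beyond the 56 males on the same side in 35 of the 69 genes and on the opposite side in 0. In the 9 genes elsewhere they did so in 0 on either side. MSM against B6 called 24.7% of all tested genes, and how often MSM males lay beyond the 56 over all tested genes was not counted. Of the 72 called genes, 53 showed full separation of the B6-Chr8MSM males, by the same values that the calls used.

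Called genes ran along the whole chromosome. In gene order the first gene called against the 28 strains was the third tested one, Pex11g, a peroxisomal membrane protein, and the last was gene 656, the cell-polarity gene Pard3. In 6 consecutive groups of 109 or 110 genes, 21, 12, 3, 8, 18 and 10 genes were called. The sparsest of these groups ran from Borcs8 to D8Ertd738e, and the longest run without a call held 66 tested genes from Sh2d4a onward. MSM against B6 gave 33, 19, 20, 25, 25 and 31 calls in the same 6 groups, or 23.3% of tested chromosome 8 genes. The group that was sparsest above held 20 there, close to the lowest count of 19.

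**Figure D2:**
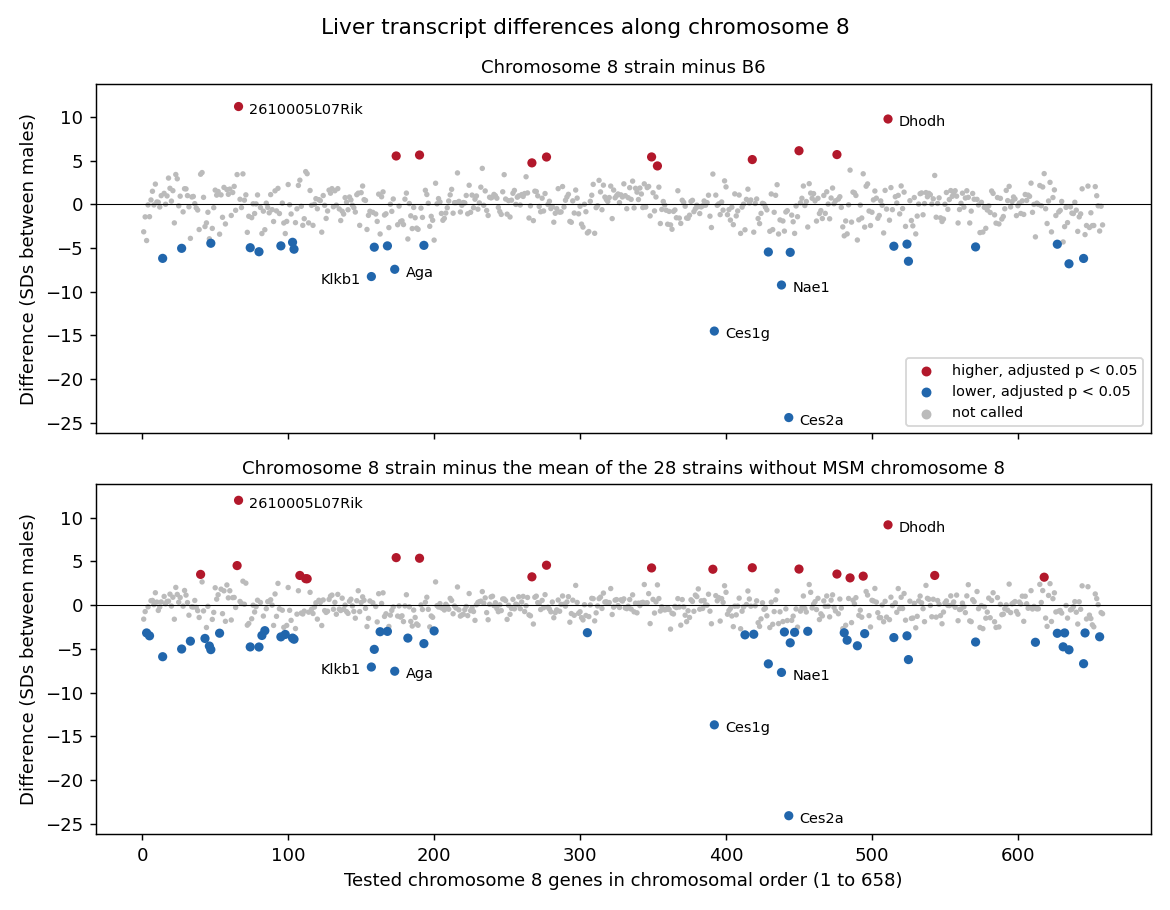
Difference of the B6-Chr8MSM strain from B6 (upper panel) and from the mean of the 28 strains (lower panel), in SDs between males, for the 658 tested chromosome 8 genes in chromosomal order. Red points were called higher, blue points lower, grey points not called; Ces2a and Ces1g lie far below all others in both panels.

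Among the carboxylesterases, 11 of 13 measured members were tested, and 3 were lower and 0 higher than in B6. On chromosome 8 as a whole 3.8% of tested genes were lower and 1.67% higher. The median difference of the 11 carboxylesterases was −1.35 SDs, beside 0.0939 SDs over all tested genes. The upstream sequences of the 3 lower genes are shown because these members of 1 gene family were called in the same direction. They are the 250 bases before the transcription start in RefSeq, build GRCm38.p6, which is the sequence of B6 and not of MSM; the MSM sequence was not used here. Capitals mark matches on either strand to CAAAGTCCA (HNF4A), TTNNGNAAT (C/EBP), TGACNNNGC (antioxidant response element) or TATAAA (the core box bound by the TATA-binding protein).
Ces2a, chr8:104733753-104734002, forward strand: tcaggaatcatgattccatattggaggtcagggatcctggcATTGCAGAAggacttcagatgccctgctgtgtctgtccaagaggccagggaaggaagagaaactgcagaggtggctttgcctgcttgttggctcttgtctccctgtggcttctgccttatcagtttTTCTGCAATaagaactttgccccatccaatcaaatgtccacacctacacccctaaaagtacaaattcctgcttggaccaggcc
Ces2e, chr8:104926010-104926259, forward strand: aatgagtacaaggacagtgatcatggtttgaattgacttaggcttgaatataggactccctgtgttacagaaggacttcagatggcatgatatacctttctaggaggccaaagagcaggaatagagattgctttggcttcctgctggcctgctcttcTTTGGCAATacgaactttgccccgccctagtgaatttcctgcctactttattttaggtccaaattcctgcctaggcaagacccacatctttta
Ces1g, chr8:93337210-93337459, reverse strand: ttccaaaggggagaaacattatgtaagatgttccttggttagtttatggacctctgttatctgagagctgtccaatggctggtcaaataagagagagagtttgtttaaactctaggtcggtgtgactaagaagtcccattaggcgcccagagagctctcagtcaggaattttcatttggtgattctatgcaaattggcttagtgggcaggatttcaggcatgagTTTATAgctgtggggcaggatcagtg
C/EBP letters were found in Ces2a at 209 and 83 bases before the start and in Ces2e at 93 bases before it, and 10.2% of the 32851 RefSeq promoter windows of this length hold them. Ces1g held TATA letters on the opposite strand 26 bases before its start, as 12.4% of windows do on either strand. The shares for the other motifs were 0.384% for HNF4A and 10.2% for the antioxidant response element, and neither was in the 3 windows. In a global alignment Ces2a and Ces2e were identical in 57.3% of aligned columns, Ces2a and Ces1g in 50.5%. These matches describe letters only and say nothing of binding.

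Ces2a, a hydrolase of drugs and acylglycerols, had values of 9.31 and 9.28 in the B6 males and 8.85 and 8.85 in the B6-Chr8MSM males. The MSM males read 8.74 and 8.77, and the 54 males of the other consomic strains ran from 9.22 to 9.32 with a median of 9.29. All B6-Chr8MSM and MSM males were therefore below all males without MSM chromosome 8. The difference from B6 was −0.441 ± 0.018 (SE, 2 males against 2), or −24.4 SDs (limma adjusted p = 1.61e-17), and from the 28 strains −24.1 SDs (adjusted p = 1.43e-21).

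Ces1g, a lipid and drug esterase of hepatocytes, read 8.10 and 8.10 in B6 and 7.86 and 7.82 in B6-Chr8MSM. It read 7.88 and 7.91 in MSM and 8.02 to 8.14 in the 54 other consomic males. Again the groups with and without MSM chromosome 8 did not overlap. Ces1g differed from B6 by −0.262 ± 0.018 (−14.5 SDs, limma adjusted p = 1.7e-11).

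Ces2e, a close relative and tested neighbour of Ces2a, read 9.225 and 9.224 in B6, 9.209 and 9.206 in B6-Chr8MSM, and 9.210 and 9.211 in MSM. The 54 other males ran from 9.209 to 9.227, so the B6-Chr8MSM males touched the lower end of that range. Relative to B6 it was −0.0166 ± 0.003 (−5.49 SDs, limma adjusted p = 0.00406), and the call ended without B6-Chr8MSM male 2 or either B6 male. Leaving out B6-Chr8MSM male 1 instead kept the call.

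Ces1f, a triacylglycerol hydrolase directly before Ces1g in the order of tested genes, went the other way. It read 11.7312 and 11.7314 in B6 and 11.7333 and 11.7330 in B6-Chr8MSM, while MSM read 11.7317 and 11.7315. Both B6-Chr8MSM males were above the 54 other males, whose highest value was 11.7321, and above both MSM males. The difference was not called against B6 (3.47 SDs, limma adjusted p = 0.192) and was called against the 28 strains (4.11 SDs, adjusted p = 0.00106), a call that ended without either B6-Chr8MSM male. Its probe set carries the suffix _s_at, which Affymetrix gives to sets whose probes can bind several related transcripts, so signal from neighbouring carboxylesterases cannot be told apart. The sets of Dhodh, Mt1, Trappc11, Ciapin1, Pex11g, Hpgd and Gpt2 carry the same suffix. Those of Fcsk, Adgrg1, Dnase2a and Ces5a end in _x_at, a mark for sets in which some probes can bind other transcripts.

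The other 7 tested carboxylesterases (Ces1c, Ces1d, Ces1e, Ces1h, Ces2g, Ces4a and Ces5a) were not called against either reference. Their differences from B6 lay between −2.65 SDs for Ces1e and 1.06 SDs for Ces1h. Ces1e was lower in MSM than in B6 (−5.48 SDs, limma adjusted p = 0.000122). All arrays carry probes designed on the reference sequence, and MSM bases that differ under a probe can lower its signal without a change in transcript level. That was not tested for any gene described here.

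**Figure D3:**
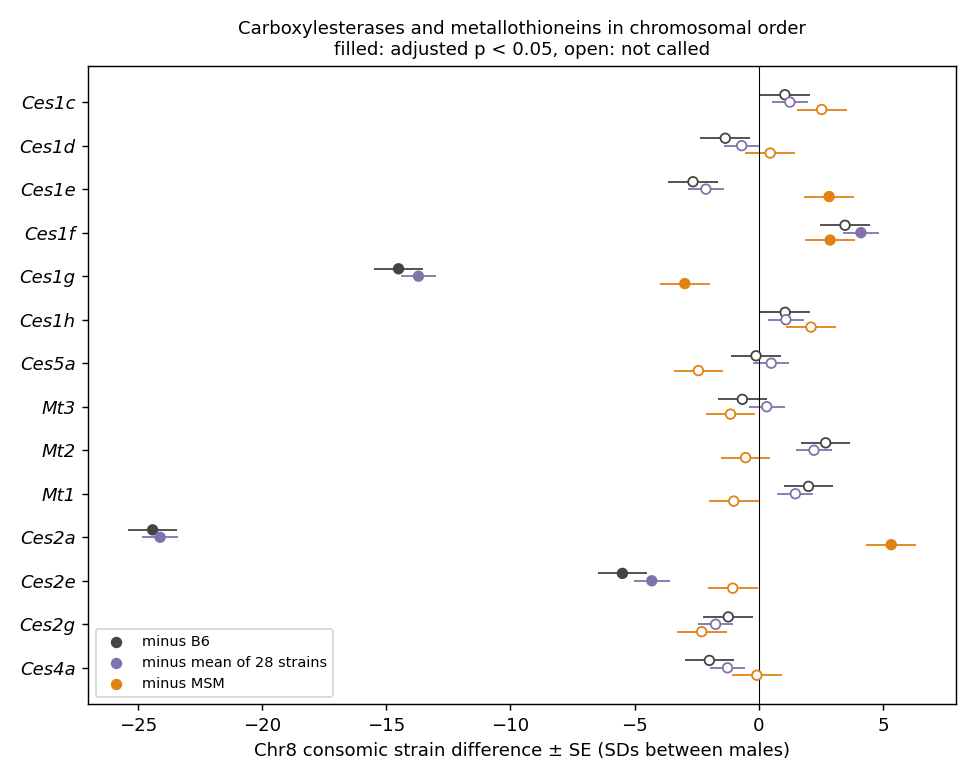
Difference of the B6-Chr8MSM strain from B6 (dark), from the mean of the 28 strains (purple) and from MSM (orange), in SDs between males with the SE of the contrast as bars, for the tested carboxylesterases and metallothioneins in chromosomal order. Filled points were called; Ces2a at −24.4 and Ces1g at −14.5 SDs from B6 stand apart from the rest, and Ces2a was also called against MSM, in the opposite direction.

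The metallothioneins Mt1 and Mt2 had a wide spread between males and were not called against B6. Mt2 read 8.54 and 9.18 in the B6 males and 9.73 and 9.80 in the B6-Chr8MSM males. MSM males read 9.82 and 10.07, and the 54 other consomic males ran from 8.28 to 10.08 with a median of 8.99. The B6-Chr8MSM males were above both B6 males and inside the range of the other consomic strains. The difference from B6 was 0.905 ± 0.34 (2.69 SDs) and was not called (limma adjusted p = 0.343). Mt1 differed from B6 by 0.417 ± 0.21 (2 SDs, limma adjusted p = 0.504), and Mt3 by −0.663 SDs (adjusted p = 0.857). In MSM against B6 both Mt1 (adjusted p = 0.0264) and Mt2 (adjusted p = 0.0172) were called higher.

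Of 15 tested genes for plasma proteins and proteases on chromosome 8, 1 was higher and 1 lower than in B6, with a median of 0.805 SDs. The shares over all tested chromosome 8 genes were 1.67% higher and 3.8% lower. Klkb1, the precursor of plasma kallikrein in the contact system, read 9.799 and 9.797 in B6, 9.782 and 9.784 in B6-Chr8MSM, and 9.780 and 9.778 in MSM. The 54 other males ran from 9.791 to 9.801, so no male without MSM chromosome 8 was as low. Relative to B6 the difference was −0.0147 ± 0.0018 (−8.26 SDs, limma adjusted p = 5.56e-06).

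Lcat, which esterifies cholesterol on plasma lipoproteins, read 11.69533 and 11.69546 in B6 and 11.69593 and 11.69616 in B6-Chr8MSM. MSM males read 11.69588 and 11.69592, and the highest of the 54 other males read 11.69590. The B6-Chr8MSM males were above all of these. The difference was 5.7 SDs (limma adjusted p = 0.00277), and the call ended without B6-Chr8MSM male 2 or B6 male 1 and under quantile normalization. Proz, the clotting cofactor protein Z, was lower against the 28 strains only (−3.81 SDs, adjusted p = 0.00324, and −2.54 SDs against B6, adjusted p = 0.385). The clotting factors F7, F10 and F11 and the haemoglobin-binding protein Hp were not called, at 3.64, 0.805, −0.787 and −0.541 SDs from B6.

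Among enzymes of small-molecule metabolism, 1 of 19 tested genes was higher than in B6 and 0 lower, beside 5.47% called on chromosome 8. That gene was Dhodh, the mitochondrial enzyme that oxidises dihydroorotate to orotate. It read 7.81849 and 7.81846 in B6, 7.81905 and 7.81889 in B6-Chr8MSM, and 7.81892 and 7.81891 in MSM. The 54 other consomic males did not exceed 7.81864, so all 4 males with MSM chromosome 8 were above all others. Dhodh thus differed from B6 by 0.000495 ± 5.1e-05 (9.77 SDs, limma adjusted p = 1.91e-07). Under quantile normalization it was −9.14e-05 and was not called (adjusted p = 0.96).

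**Figure D4:**
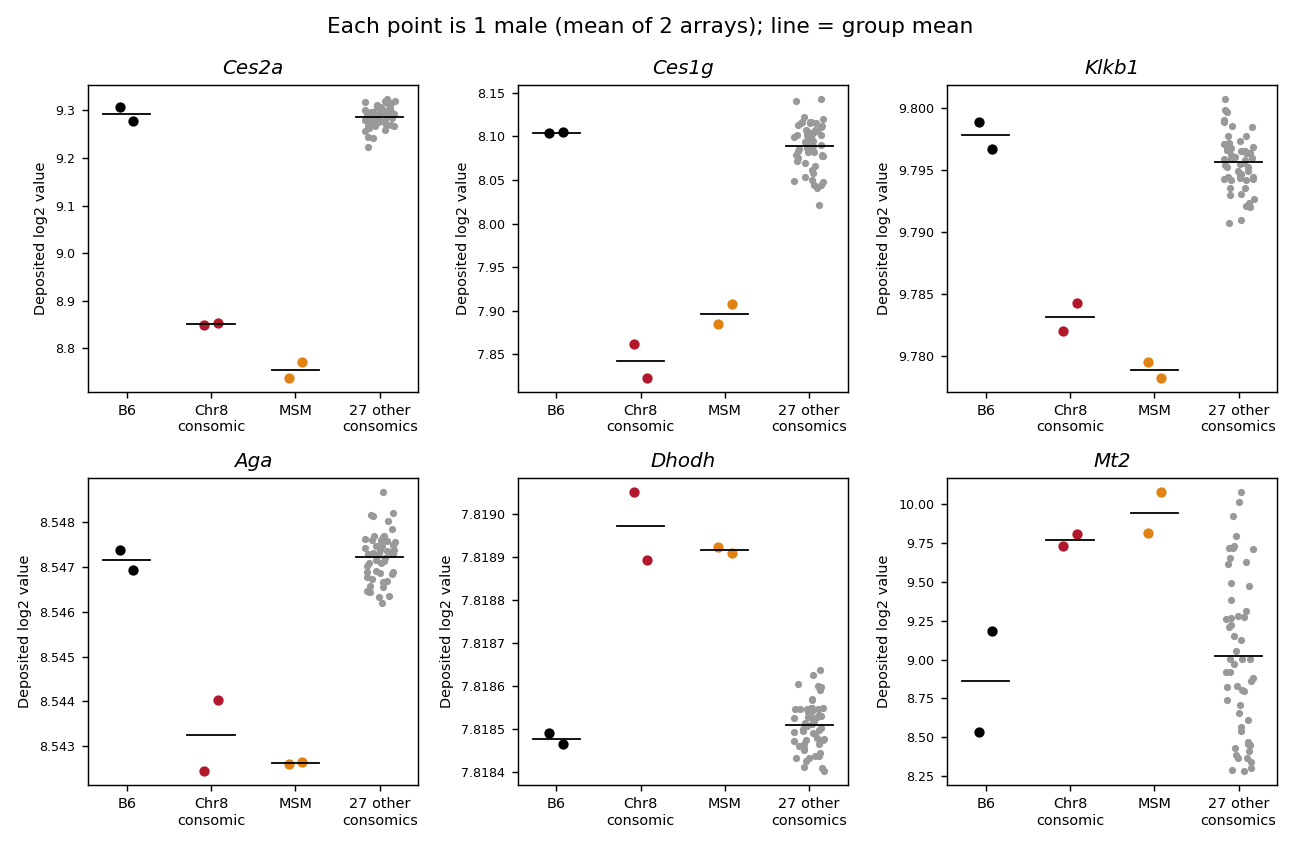
Deposited log2 value of each male (points, the mean of 2 arrays) for 6 chromosome 8 genes, with a line at each group mean; the scale differs between panels and does not start at 0. For Ces2a, Ces1g, Klkb1, Aga and Dhodh the B6-Chr8MSM and MSM males lie apart from B6 and the other consomic strains, and for Mt2 they lie inside the spread of the other consomic strains.

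In the antioxidant and heme group 1 of 6 genes was higher, beside 1.67% of all tested chromosome 8 genes. Prdx2, a cytosolic peroxide-reducing enzyme, read 11.09295 and 11.09295 in B6, 11.09310 and 11.09313 in B6-Chr8MSM, and 11.09299 and 11.09297 in MSM. The B6-Chr8MSM males were above the 54 other males (11.09289 to 11.09307), and the MSM males were inside that range. The difference was 5.43 SDs from B6 (limma adjusted p = 0.00406) and 4.47 SDs from MSM (adjusted p = 0.00131). The call against B6 ended without B6-Chr8MSM male 2, without either B6 male, with the probe set of largest variance and under quantile normalization.

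The remaining chromosome 8 lists held no call against B6: 24 genes of lipid and steroid metabolism, 7 of insulin and glycogen signalling, 14 of innate immunity, 10 chaperone, proteasome and lysosome genes, 13 mitochondrial genes and 16 transcription and oxygen-sensing factors. At an unadjusted p below 0.05 these lists held 6, 2, 2, 2, 5 and 4 genes, beside 25.7% of all chromosome 8 genes and 10.1% of all tested genes. Against the 28 strains the lower genes in these lists were Acsf3, a mitochondrial acyl-CoA synthetase, Gnpat, the first enzyme of ether-lipid synthesis, Ikbkb, Lamp1, Ciapin1 and Cbfb, with limma adjusted p from 0.000177 (Lamp1) to 0.0496 (Ikbkb). Further tested probe sets of Ikbkb read 0.0933 and 0.394 SDs there, and those of Ciapin1 read 1.17, −2.23 and −0.698 SDs. These were not called. In the fit of all probe sets the chosen Ikbkb set had a limma adjusted p of 0.0554. Acsf3, Gnpat, Lamp1 and Cbfb had no further tested set.

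Among the genes called higher against B6 outside these lists was 2610005L07Rik, annotated as a transcribed pseudogene. It read 9.491 and 9.487 in B6, 9.522 and 9.522 in B6-Chr8MSM, and 9.525 and 9.523 in MSM, with 9.479 to 9.493 in the 54 other males. The 4 males with MSM chromosome 8 were above all others, by 0.0331 ± 0.003 from B6 (11.2 SDs, limma adjusted p = 9.52e-09). Palld, an actin-binding scaffold (5.65 SDs), Fam32a (5.42 SDs), the lymphatic growth factor Vegfc (5.54 SDs), the adhesion receptor Adgrg1 (5.13 SDs), the F-box gene Fbxl8 (6.14 SDs), Niban3 (4.75 SDs) and Get3 (4.4 SDs) were also called, at adjusted p up to 0.0399. Each of these 7 lost its call in at least 1 fit without 1 of the 4 males. Of the 11 higher calls, 2610005L07Rik, Palld and Fam32a held under quantile normalization, and Vegfc and Fbxl8 turned sign there without a call (−0.000166 and −0.000164).

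Aga, which cleaves the asparagine-sugar link of glycoproteins in lysosomes, read 8.5474 and 8.5469 in B6, 8.5425 and 8.5440 in B6-Chr8MSM, and 8.5426 and 8.5427 in MSM. The lowest of the 54 other males read 8.5462, above all 4. The difference from B6 was −0.00391 ± 0.00053 (−7.43 SDs, limma adjusted p = 4.2e-05). Nae1, a subunit of the enzyme that activates the ubiquitin-like protein NEDD8, was lower by 0.00151 ± 0.00016, which is −9.23 SDs (adjusted p = 5.62e-07), with both B6-Chr8MSM males below all 56 reference males. Its call ended under quantile normalization.

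Clec4g, a lectin of sinusoidal endothelium, read 9.8920 and 9.8918 in B6 and 9.8881 and 9.8889 in B6-Chr8MSM, with 9.8901 and 9.8899 in MSM. The B6-Chr8MSM males were below MSM and below the 54 other males, whose lowest value was 9.8901. Clec4g differed from B6 by −6.18 SDs (limma adjusted p = 0.000837), and the call ended without B6-Chr8MSM male 1, under quantile normalization and in the fit of the B6-Chr8MSM and B6 males alone. A further tested probe set of Clec4g had the opposite sign, at 0.727 SDs from B6. It was not called (limma adjusted p = 0.827 in the fit of all probe sets). In whole liver, fewer endothelial cells and less RNA per cell cannot be told apart. Of 11 tested endothelial markers Clec4g was the only one called, and the mean level of the 12 measured was 8.5567 and 8.5565 in the B6 males and 8.557 and 8.5589 in the B6-Chr8MSM males.

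Other lower genes were the actin-linked ubiquitin adaptor Klhl2 (−4.69 SDs), 4833411C07Rik (−5.03 SDs), Fam149a (−4.9 SDs), the Hsp70 cochaperone Bag4 (−5.13 SDs) and the phospholipase Ddhd2 (−4.34 SDs), with limma adjusted p between 0.00833 and 0.0461. These 5 calls ended in every fit without 1 of the 4 males. Under quantile normalization Bag4 turned to 0.000749 and was not called (adjusted p = 0.554). The further 13 called genes were all lower and were named after their values were seen. They include genes of vesicle transport and the Golgi (Vps36, Cog4, Trappc11 and Ap1g1), transporters (Slc20a2, Slc38a7 and Abcb10, a mitochondrial transporter), the fucose kinase Fcsk, the metalloprotease Adam9, and Grtp1, Def8, Meak7 and 2810004N23Rik. Of these, Abcb10 (−6.8 SDs, adjusted p = 0.000206) and Fcsk (−6.51 SDs, adjusted p = 0.000411) were called without any 1 of the 4 males.

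A second probe set measures the same transcript at another place. Of the 72 genes called against the 28 strains, 31 had 51 further tested probe sets. Of these 51, 41 had the same sign and 10 the opposite sign, 12 were called with the same sign and 0 with the opposite. Over all 19429 tested probe sets 0.561% were called. Fcsk had a second set at −9.04 SDs from B6 (limma adjusted p = 8.2e-07) and another at 0.143 SDs. The chosen set of Fcsk and this second set both end in _x_at, and the set at 0.143 SDs does not. 2610005L07Rik had 2 further sets called higher, at 11.9 and 6.98 SDs. Its other 4 sets, between 0.135 and 3.3 SDs from B6, were not called, and the set at 0.135 SDs read −0.549 SDs against the 28 strains. Ces2a, Ces1g, Ces2e, Klkb1, Aga, Dhodh and Nae1 had no further tested set.

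Whether the chromosome 8 differences matched those of the donor strain was read from comparisons that share no male: B6-Chr8MSM against the 27 other consomic strains, and MSM against B6. The first called 70 chromosome 8 genes (20 higher, 50 lower), or 10.6% of those tested, beside 0.619% called over all tested genes. The second called 153, or 23.3% of those tested, beside 24.7% over all tested genes. The 2 comparisons shared 44 genes with the same sign, which is 62.9% of the first list and 28.8% of the second, and 0 with opposite signs. Of the 20 higher genes 20 were also above B6 in MSM, and of the 50 lower genes 46 were below. Over all tested genes the signs matched in 54.3%. The 4 exceptions, named after their values were seen, were Def8, Ciapin1, Pdp2 and Tmem208, at 0.164, 0.794, 0.6 and 0.0101 SDs in MSM minus B6.

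**Figure D5:**
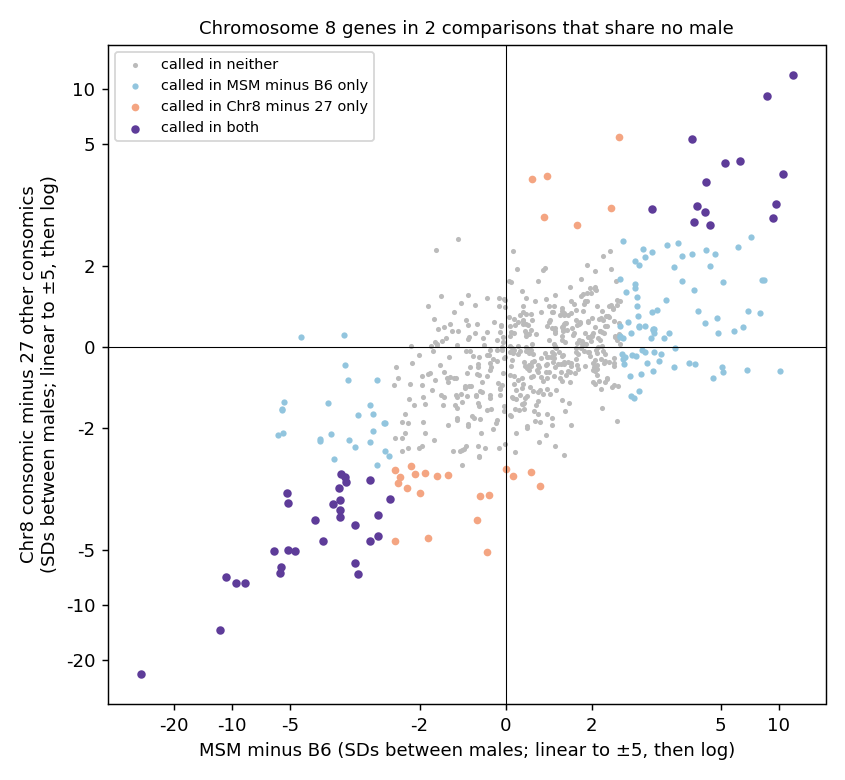
Chromosome 8 genes by their difference in MSM minus B6 (horizontal) and in B6-Chr8MSM minus the 27 other consomic strains (vertical), in SDs between males on axes that are linear to 5 and logarithmic beyond. The 44 purple points, called in both, lie at the lower left and upper right, with the same sign on both axes; blue and orange points were called in 1 comparison only.

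The direct comparison with MSM asks where a strain with the MSM copy of chromosome 8 still differs from the donor. Of the 658 chromosome 8 genes 112 were called (17%), 19 higher and 93 lower, against 24.2% of genes elsewhere and 23.8% of all tested genes. The median difference was −0.89 SDs on chromosome 8 and −0.482 SDs elsewhere. Without 1 of the 4 males the count was 51 to 69, and quantile normalization gave 564, of which 558 were lower. That normalization moved the median difference from MSM over all tested genes from −0.51 to −5.69 SDs. Scaling and centring kept the count at 112 but with 46 higher and 66 lower. Of the 36 genes called against B6, 10 also differed from MSM. Arrdc2, an arrestin-domain gene, read 7.4244 and 7.4142 in B6-Chr8MSM, 7.4278 and 7.4269 in B6, and 7.5066 and 7.4896 in MSM. The B6-Chr8MSM males were thus near B6 and clear of MSM, by −0.0788 ± 0.007 (−11.3 SDs, limma adjusted p = 3.82e-10). Sult5a1, a sulfotransferase, read 8.074 and 8.020 in B6-Chr8MSM, 8.009 and 8.022 in B6, and 8.153 and 8.141 in MSM. B6-Chr8MSM male 1 was above the highest of the 54 other consomic males (8.061), and male 2 was between the B6 males. Sult5a1 differed by −6.38 SDs from MSM (limma adjusted p = 1.6e-05) and by 1.99 SDs from B6 (adjusted p = 0.505).

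Outside chromosome 8, 0 genes were called against both references by limma, with 1035 genes at an unadjusted p below 0.05 against B6 and 564 (5.02%) against the 28 strains. The single gene called against B6 was Trappc12, a vesicle-tethering subunit on chromosome 12, at −0.000172 ± 3.7e-05 (−4.7 SDs, adjusted p = 0.0198), and it was not called against the 28 strains (adjusted p = 0.393). Those called against the 28 strains were Slc25a34 on chromosome 4, higher, and Arfgap2 on chromosome 2, Eogt on chromosome 6 and Mtrex on chromosome 13, lower, at adjusted p from 0.0135 to 0.0391. These 5 were named after their values were seen. The counts depended on the processing: against B6 the 1 call became 29 (27 higher) under quantile normalization, 41 (12 higher) when genes were scaled by their SD and males centred, and 40 (14 higher) with all arrays and the male as a random block. Against the 28 strains the 4 calls became 22 (18 higher), 16 (6 higher) and 46 (26 higher). The 419 tested members of the lists for lipid, bile acid, glucose, xenobiotic, sex-biased, acute-phase, coagulation, interferon, clock, stress, respiratory, ribosomal and cell-cycle genes and for cell type markers that lie off chromosome 8 held 0 calls in either comparison by limma. At an unadjusted p below 0.05, 25 of them passed against B6 and 24 against the 28 strains, beside 9.2% and 5.02% of all tested genes elsewhere.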

How the data were processed

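Livers of 60 males of 30 strains were measured on 120 arrays. Each deposited value was taken as the log2 signal of a probe set, normalized by the authors before deposit. The array medians lay between 7.41583 and 7.4168. How signals were summarised and normalized, and the log base, were not given in the sources used here; base 2 was inferred because values ran from 6.34445 to 14.8238.

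Of 45037 probe sets, 34945 carried 1 gene symbol, 932 carried several and 9160 were not in the annotation table. By gene ID 34737 matched a gene of RefSeq GRCm38.p6, which gave chromosome and gene order. The build behind the table is not named, so only promoter sequences carry coordinates. Each gene was represented by its brightest probe set on average, and a gene was tested if at least 2 of 60 males exceeded the median of all values (7.41663).

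The 2 arrays of a male were averaged. limma 3.58.1 (R 4.3.3) was fitted with 1 mean per strain, 30 residual and 0.592 prior degrees of freedom. The same fit was run on simulated males drawn independently around 1 mean per gene. They held no strain differences besides those added to the B6-Chr8MSM males. Against B6 it recovered 30% of added changes of 3 SDs and 92% of those of 5 SDs. P-values set each difference against the spread between males of a strain, estimated over all 30 strains. Named chromosome 8 genes were the 12 largest called differences in each direction from B6 with both males beyond both B6 males (11 existed on the higher side), all tested carboxylesterases and metallothioneins, up to 4 called members per list, and the 5 largest called in each direction from MSM. The ranking used the deposited scale, which does not order genes by the size of a change. Members and lists were chosen with earlier results of these data known. Alternatives varied the normalization, scaling, filter, probe set, array averaging, moderation, threshold and males. The number of arrays limits the precision.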

Additional observations from a re-analysis of the deposited data

Results flagged for a closer look

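Some chromosome 8 genes differed from B6 by another amount in B6-Chr8MSM than in MSM, although both strains carry the MSM chromosome, by the limma contrast between the 2 strains. Higher in B6-Chr8MSM than in MSM on the deposited log2 scale were the lysosomal nuclease Dnase2a (0.117, adjusted p = 0.00136), Ces2a (0.0965, adjusted p = 0.000191), the prostaglandin-degrading enzyme Hpgd (0.0132, adjusted p = 0.0125), Ces1e (0.00899, adjusted p = 0.0384) and Ces1f (0.00151, adjusted p = 0.0358). Dnase2a read 9.3941 and 9.3551 in B6-Chr8MSM, 9.3869 and 9.3784 in B6 and 9.2658 and 9.2501 in MSM, so the consomic males lay on either side of the B6 males and both were above MSM. Lower were Sult5a1 (−0.0999, adjusted p = 1.6e-05), Arrdc2 (−0.0788, adjusted p = 3.82e-10) and Ces1g (−0.0537, adjusted p = 0.029). So were the sterol-synthesis enzyme Msmo1 (−0.0416, adjusted p = 0.015) and the alanine aminotransferase Gpt2 (−0.00773, adjusted p = 0.000532). Msmo1 read 9.090 and 9.048 in B6-Chr8MSM, 9.086 and 9.089 in B6, and 9.115 and 9.107 in MSM. MSM against B6 was not called for Msmo1 (limma adjusted p = 0.178). The 10 genes were not called in the fit of the B6-Chr8MSM and MSM males alone. At adjusted p below 0.01, 5 of the 10 kept their call.

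Probe sets without a single gene symbol entered no comparison above. Of 10092 such sets 3122 were tested, and 9 were called against B6 and 13 against the 28 strains, 8 of them in both. The shares called were 0.288% and 0.416%. Among them were differences from B6 of −0.44 ± 0.079 (limma adjusted p = 0.00253) and −0.0785 ± 0.0048 (adjusted p = 3.44e-13). These 2 sets were chosen after their values were seen, and their place in the genome was not used here.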

How the results depend on the processing

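Calls on chromosome 8 against B6 (36) stayed within 1.5 times of that count under scaling, without the filter, with the most variable probe set and with a trended robust prior. They moved to 11 under quantile normalization of the deposited values, 60 with all arrays and the male as a random block, 22 at adjusted p below 0.01 and 0 with the 4 males alone (limma, 158 at an unadjusted p below 0.05). They were 12 to 18 without 1 male. Calls elsewhere (1) moved to 29, 41 under scaling, 2 with the most variable probe set, 40, 0 at the stricter threshold and 0 with the 4 males alone (1082 at an unadjusted p below 0.05), and were 0 to 1 without 1 male. Against the 28 strains, chromosome 8 calls (72) moved to 17 under quantile normalization and 46 at the stricter threshold, and were 25 to 70 without 1 male. Calls elsewhere (4) moved to 22 under quantile normalization, 16 under scaling, 46 with all arrays and 0 at the stricter threshold (564 at an unadjusted p below 0.05), and were 0 to 4 without 1 male. Against MSM, 112 moved to 564, 47 and, with the 4 males alone, 3, and were 51 to 69 without 1 male. Under quantile normalization Dhodh (−9.14e-05), Vegfc (−0.000166), Fbxl8 (−0.000164), Bag4 (0.000749), Ces5a (9.77e-05) and Mt3 (8.72e-05) changed sign, and Ces5a, not called in any of these fits, ran from −6.21e-05 to 5.14e-05 without 1 B6-Chr8MSM male and was 4.9e-06 without B6 male 2. The cause was not tested. Ces2a and Ces1g kept direction and call against both references in all fits but that of the 4 males alone, where each had an adjusted p of at least 0.24. No paired analysis was possible because the numbers in the labels name arrays and animals within a strain and link no males across strains. With 2 males per strain, differences below a few SDs between males cannot be called.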

Other observations

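Some genes showed a clearer difference in a further probe set than in the one with the highest mean. For Atp11a, a phospholipid flippase, the chosen set differed from B6 by 3.45 SDs (limma adjusted p = 0.2 in the fit of all probe sets) and a second set by 11 SDs, or 0.0229 ± 0.0021 (adjusted p = 1.24e-08). For Gab1, an adaptor of growth-factor receptors, the values were −3.26 SDs (adjusted p = 0.235) and −6.65 SDs (adjusted p = 0.000229). Cdh1, which encodes E-cadherin, read 7.763 and 7.771 in B6 and 7.665 and 7.734 in B6-Chr8MSM, below all 54 other consomic males (7.746 to 7.811). It was called lower against the 28 strains (−4.65 SDs, adjusted p = 0.00019) and not against B6 (adjusted p = 0.075). These 3 genes were chosen after their values were seen.

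The 73 chromosome 8 genes called against either reference were also looked up in the other 27 consomic strains, each against B6. Of 1971 such tests 10 were calls (0.507%, beside 0.81% over all tested genes), in 9 genes. Ddhd2 was called in 2 of these strains, once in each direction.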
